A study of Mus musculus with 24 samples.

Results

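Gap junction, pannexin and aquaporin 4 transcripts were followed through GFP-sorted cells of the adult mouse hippocampus. The 8 genes were taken by symbol from the 48321 gene symbols of the count tables. They are the connexins Gja1, Gjb6, Gjb2, Gjc1 and Gjd2, the pannexins Panx1 and Panx2, and the water channel gene Aqp4. All mice were adult C57BL/6 animals that carried Hes5::CreERT2, a tamoxifen-inducible Cre recombinase under control of the stem cell gene Hes5, and the reporter Rosa26R-CAG::GFP. The WT group was Notch2 wt/wt and the CKO (conditional knockout) group was Notch2 flox/flox, so that both groups had the driver, the reporter and the drug. Tamoxifen was given for 5 days, and GFP+ cells were collected after a chase of 1 day. Each genotype had 3 pools of animals, and each pool had 2 libraries, which were summed. Whether the libraries of a pool came from the same cDNA is not stated in the sources used here, and neither is the meaning of the label tags 20K, 12K and 2K (WT pools 1, 2 and 3) and 19K, 4K and 9K (CKO pools 1, 2 and 3). Whether pools had animals in common is not stated, and the p-values reflect only how far these pools differ among themselves. The sort selected every cell in which the Cre had acted, and not stem cells alone.

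Connexins form hexameric hemichannels that dock between neighbouring cells as gap junctions, through which ions and small metabolites pass. In astrocytes and hippocampal radial glia, the products of Gja1 and Gjb6 couple the cells into a network. Pannexins have a similar membrane topology but mostly act as single-membrane channels that release ATP, and Aqp4 is the main water channel of astrocytes, concentrated at endfeet on blood vessels.

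Pools had 40366579 to 53984963 reads in genes. Levels are CPM, read counts scaled by TMM-adjusted library size, at which 1 read was worth 0.0175 to 0.0265 CPM. Notch2, the deleted gene, averaged 183 ± 107 CPM in WT and 101 ± 30.8 CPM in CKO (SD, n = 3). The WT and CKO values of Notch2 overlapped, and edgeR's quasi-likelihood test gave a log2 fold change of -0.86 (SE 0.45) with an adjusted p = 0.790, so the transcript level by itself did not separate the labels. The 15 astrocyte and radial glia markers were all detected and summed to 26995 to 27730 CPM in WT and 23563 to 36695 CPM in CKO pools. Oligodendrocyte markers summed to 2567 to 6899 CPM over the 6 pools, so the sorted cells were a mixture. Fewer cells of a type and less RNA per cell cannot be told apart in such pools.

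The DNA just upstream of 3 genes is shown because Gja1 and Gjb6 were the most abundant members and Panx1 was the member with the smallest p. Each sequence is the 250 bases before the RefSeq start (GRCm38), 5′ to 3′ on the gene's strand, at chr10:56377050-56377299 (plus) for Gja1, chr14:57133612-57133861 (minus) for Gjb6 and chr9:15045479-15045728 (minus) for Panx1. Capitals mark TGGGAA, the core of the motif bound by Rbpj, the DNA-binding partner of activated Notch.
Gja1: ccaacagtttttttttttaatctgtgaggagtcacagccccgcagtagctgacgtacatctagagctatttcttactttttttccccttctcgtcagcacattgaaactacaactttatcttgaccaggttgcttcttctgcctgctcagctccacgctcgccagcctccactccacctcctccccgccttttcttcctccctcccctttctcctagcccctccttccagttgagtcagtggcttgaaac
Gjb6: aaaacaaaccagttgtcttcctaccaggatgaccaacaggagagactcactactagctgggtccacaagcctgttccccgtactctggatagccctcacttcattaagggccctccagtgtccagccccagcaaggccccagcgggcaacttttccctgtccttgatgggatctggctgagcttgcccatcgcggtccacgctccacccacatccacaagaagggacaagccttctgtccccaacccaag
Panx1: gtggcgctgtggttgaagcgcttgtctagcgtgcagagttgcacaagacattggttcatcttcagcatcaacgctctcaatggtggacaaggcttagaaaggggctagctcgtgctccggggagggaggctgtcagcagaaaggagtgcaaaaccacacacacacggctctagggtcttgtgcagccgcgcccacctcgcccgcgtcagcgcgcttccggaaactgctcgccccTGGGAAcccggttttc

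The letters TGGGAA, searched on both strands, occurred once in the Panx1 window, with the first base 16 bases before the start. The Gja1 and Gjb6 windows did not hold them, nor did those of Gjb2 and Gjd2. Among 32851 windows of the same length in the RefSeq table, 21.6% held TGGGAA. The N-box CACNAG, a motif of Hes repressors, occurred 3 times in the Panx1 window, 2 times in that of Gjb6 and 0 times in those of Gja1, Gjb2 and Gjd2. Over all windows, 36.7% held at least 1, so 2 of 5 is near that share. Windows of 5 of the 8 genes are reported, and any window on chromosome 18, where Aqp4 lies, was left out of these 5. Such matches describe letters and do not show binding.

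Per kilobase of merged exon, the 8 genes spanned from abundant to barely detected. Gja1 had a median of 450.7 CPM per kb over the 6 pools and Gjb6 had 362.9 CPM per kb. Aqp4 followed with 159.0 CPM per kb. Below these astroglial genes the levels fell steeply, to 9.05 CPM per kb for Gjb2, 3.05 for Panx1, 0.568 for Panx2, 0.0601 for Gjc1 and 0.0347 for Gjd2. Within pools, Gjb6 exceeded Aqp4 by 2.63-fold, Aqp4 exceeded Gjb2 by 15.4-fold, Gjb2 exceeded Panx1 by 3.28-fold and Panx2 exceeded Gjc1 by 9.92-fold (geometric means), each in 6 of 6 pools. Each of these 4 orders had p = 0.031 in an exact two-sided sign-flip permutation test over 6 pools, the smallest it can give, and an adjusted p = 0.0547 over the 7 neighbouring pairs. Gja1 and Gjb6 were not separated, since Gja1 was higher in 4 of 6 pools (exact permutation adjusted p = 0.510). That pair depended on the gene model: merged Gja1 exons span 10257 bases and its longest transcript 3889 bases. With longest transcripts, Gja1 had a median of 1189 CPM per kb against 461.0 for Gjb6. With these lengths 5 neighbouring pairs kept 1 order in every pool, and 5 passed the adjusted threshold. At the smallest possible p, 4 of 7 pairs stay above that threshold after adjustment and 5 fall below it. The neighbours were ranked by these same levels, so the tests only describe the order. Panx1 was above Panx2 in 4 of 6 pools (adjusted exact permutation p = 0.175), and Gjc1 was above Gjd2 in 3 of 6.

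**Figure D1:**
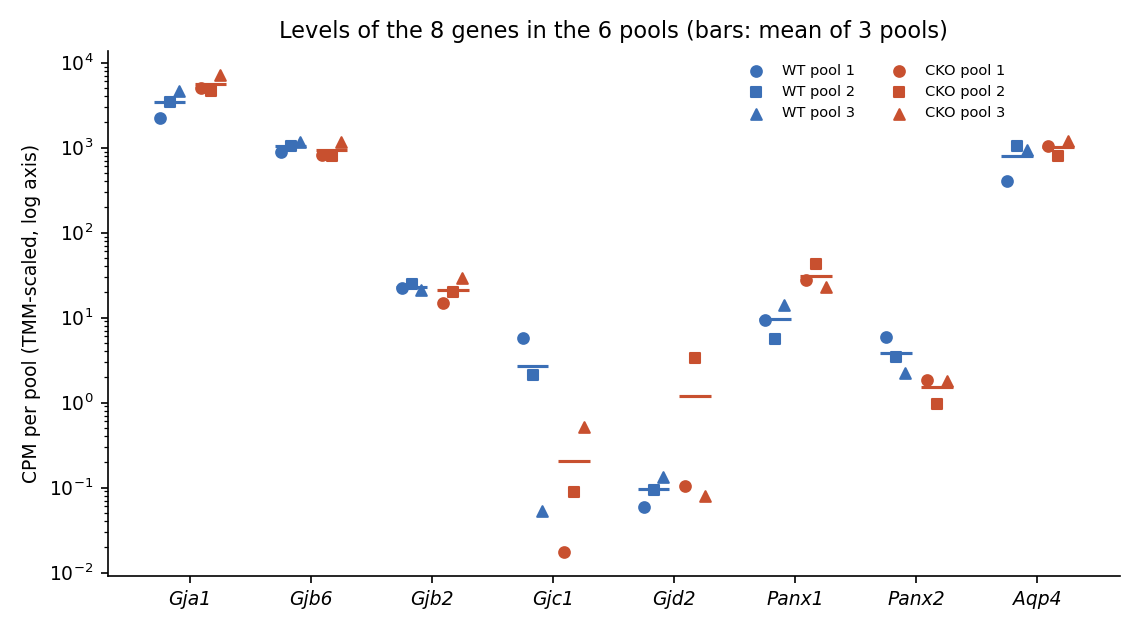
CPM per pool on a log axis for the 8 genes, with WT in blue, CKO in red, a marker shape for each pool number, and bars at the mean of 3 pools. The genotypes do not overlap for Panx1 (CKO higher) and Panx2 (CKO lower). Levels here are per gene and are not divided by length.

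No member passed an adjusted p under 0.05 between the genotypes, and 0% of the 21477 tested genes did in edgeR. Of the 8 genes, 7 passed the filter on low counts and were tested, and their adjusted p ran from 0.790 to 0.954. One of the 7, Panx1, had an unadjusted p under 0.05, where 5.91% of all tested genes did. In Panx1 alone, all CKO pools were above all WT pools, which held for 7.67% of tested genes. In Panx2 alone, all CKO pools were below all WT pools, which held for 8.17%. The median log2 fold change of the 7 was -0.10, beside -0.06 over all genes tested, with 3 above 0 and 4 below. DESeq2, the other tool run, called 0 of the members and 129 genes in all.

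**Figure D2:**
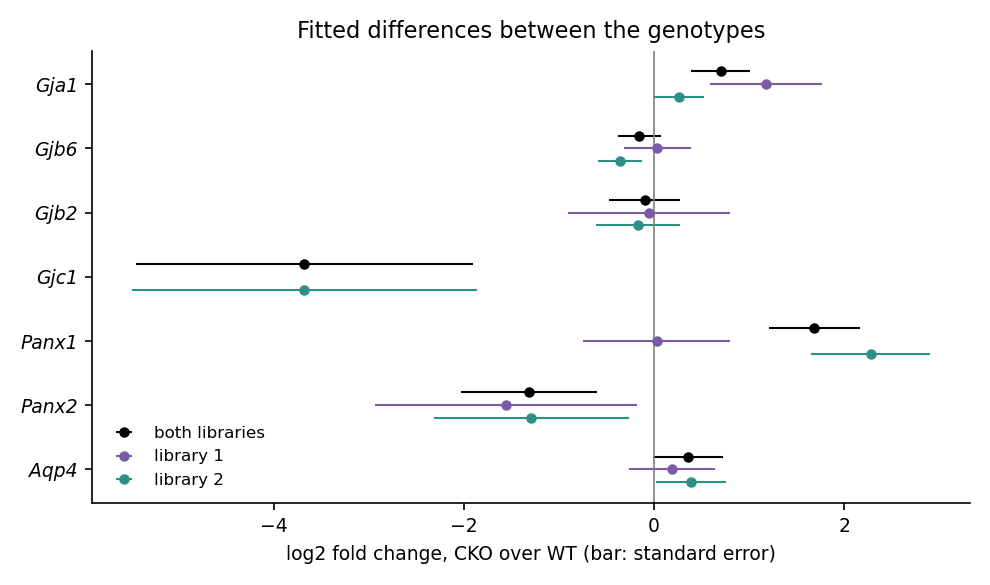
Fitted log2 fold change of CKO over WT (points) with its standard error (bars) for the 7 tested genes, from both libraries of each pool (black), library 1 alone (purple) and library 2 alone (green). Panx1 sits at 1.68 with both libraries, 0.03 in library 1 and 2.28 in library 2. Gjc1 could not be fitted in library 1.

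Gja1 (chr10:56377330-56402513, plus strand, GRCm38), the main astrocytic connexin, had 2254, 3472 and 4671 CPM in WT pools 1, 2 and 3. It had 5094, 4576 and 7231 CPM in CKO pools 1, 2 and 3. CKO pool 2 was below WT pool 3, so the genotypes overlapped, although 2 of the 3 CKO pools exceeded every WT pool. The means were 3465 ± 1208 CPM in WT and 5633 ± 1407 CPM in CKO (SD, n = 3). The log2 fold change was 0.70 (SE 0.31), with an unadjusted p = 0.0587 and an adjusted p = 0.790 by edgeR. Over the alternatives that were run its log2 fold change ranged from 0.26 to 1.18, with unadjusted p between 0.0194 and 0.364.

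The libraries of a pool bore on Gja1. In library 1, WT pools 1 and 2 had 906 and 1764 CPM, and in library 2 they had 3125 and 5460 CPM. In the other 4 pools the libraries lay close together, at 5117 and 4887 CPM in WT pool 3 and 7120 and 7193 CPM in CKO pool 3. Library 1 alone gave a log2 fold change of 1.18 and library 2 alone 0.26, so the larger difference came with the low values of WT pools 1 and 2 in library 1. Whether the difference itself varied between libraries gave an exact permutation p = 0.2 (adjusted p = 0.6 over 6 members).

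**Figure D3:**
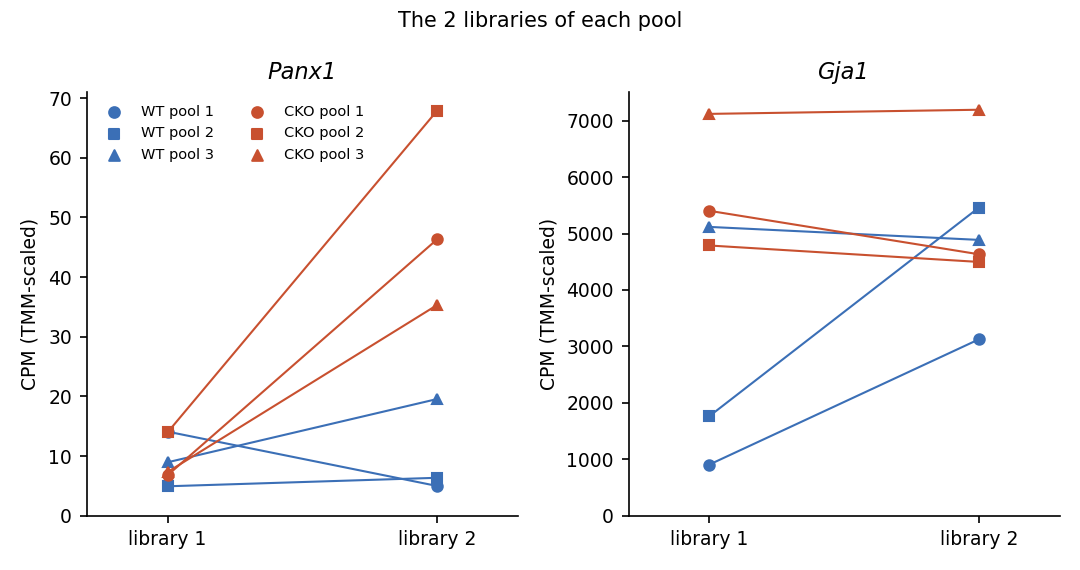
CPM of Panx1 and Gja1 in libraries 1 and 2, each line joining the libraries of 1 pool, with WT in blue and CKO in red. Panx1 is 35.3 to 67.9 CPM in library 2 of the CKO pools, above all other libraries. Gja1 is low in library 1 of WT pools 1 and 2.

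Gjb6 (chr14:57123303-57133611, minus strand), the connexin that astrocytes express later in development than Gja1, had the steadiest level of the 8. WT pools 1, 2 and 3 had 891, 1050 and 1167 CPM, and CKO pools 1, 2 and 3 had 825, 792 and 1174 CPM. CKO pools 1 and 2 were the lowest of the 6 and CKO pool 3 the highest. Across all pools the highest was 1.48 times the lowest, against 3.21 times for Gja1. The log2 fold change was -0.15 (SE 0.23, edgeR adjusted p = 0.880), from 1036 ± 139 CPM in WT and 931 ± 212 CPM in CKO (n = 3).

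Within each pool, the balance between the main astroglial connexins can be read without any library scaling. There were 39.5, 30.2 and 25.0 Gjb6 reads per 100 Gja1 reads in WT pools 1, 2 and 3. There were 16.2, 17.3 and 16.2 in CKO pools 1, 2 and 3. All CKO pools were below all WT pools, and the CKO pools were much closer to each other than the WT pools were. The ratio was 1.87-fold higher in WT, a log2 difference of -0.90 for CKO minus WT, with an exact two-sided permutation p = 0.1, the smallest that 3 against 3 pools allow, and an adjusted p = 0.15 over 3 ratios. This permutation test cannot go below that value with 6 pools. It also gave p = 0.1 in each library alone and with any 1 pool left out, where 0.1 is again the smallest possible. Leaving out a pool cannot undo a lack of overlap, so those values add no further evidence. An exact two-sided sign-flip test with pools of the same number paired gave p = 0.25, the smallest it can give.

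The same order held in each library taken alone. In library 1, WT pools 1, 2 and 3 had 69.7, 66.4 and 24.9 Gjb6 reads per 100 Gja1 reads and CKO pools had 16.0, 20.4 and 17.9. In library 2, WT pools had 32.7, 16.5 and 25.0 and CKO pools had 16.4, 14.5 and 14.9. The genotypes did not overlap in either library, but WT pool 2 in library 2 lay just above CKO pool 1. The log2 differences were -1.43 in library 1 and -0.64 in library 2, and from -1.06 to -0.73 when 1 pool was left out. Both libraries come from the same pools and are not independent replicates.

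**Figure D4:**
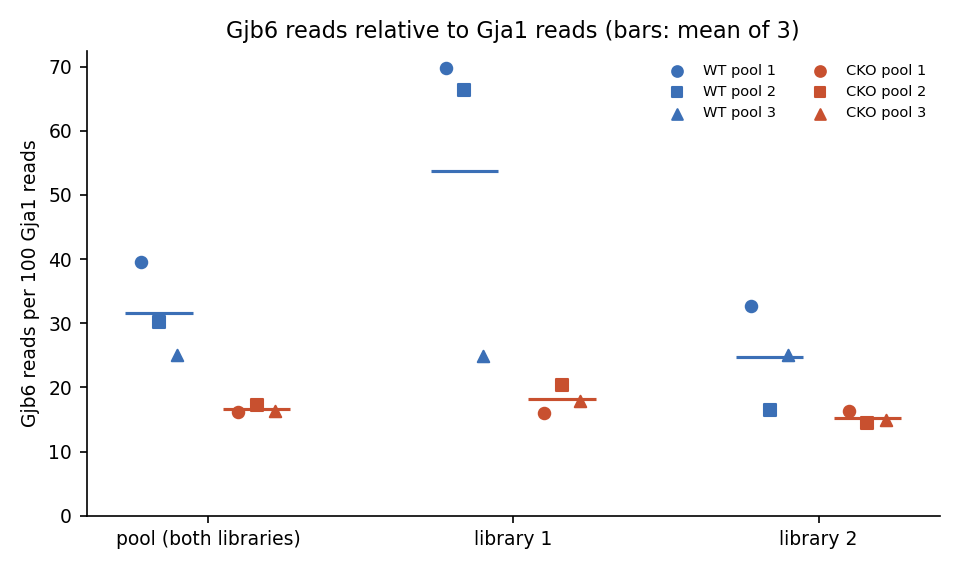
Gjb6 reads per 100 Gja1 reads in each pool, for both libraries together and for each library, with WT in blue, CKO in red and bars at the mean of 3. The CKO values lie between 14.5 and 20.4 in all 3 columns, and WT pools 1 and 2 are highest in library 1.

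Ratios with Aqp4 were less steady. Aqp4 reads per 100 Gja1 reads were 18.0, 29.9 and 20.2 in WT and 20.6, 17.4 and 16.8 in CKO pools, so the genotypes overlapped (exact permutation p = 0.3). The log2 difference of this ratio was -1.20 in library 1 and 0.22 in library 2, opposite in sign. Gjb6 reads per 100 Aqp4 reads were 219, 101 and 124 in WT and 78.6, 99.4 and 96.9 in CKO pools. This ratio did not overlap between genotypes (log2 difference -0.62, exact permutation p = 0.1, adjusted p = 0.15), yet it was -0.30 without WT pool 1 and -0.24 in library 1, where the genotypes overlapped.

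As shares of the summed CPM per kb of the 20 connexin genes, Gja1 made up 41.7 ± 5.25% in WT and 57.3 ± 1.94% in CKO pools (SD, n = 3). Gjb6 made up 49.5 ± 5.07% in WT and 36.4 ± 0.426% in CKO pools. These shares are given as a description, since they carry the same reads as the ratio above, and with longest transcripts the Gja1 share ran from 54.5% to 75.2% over the pools. Gjc3, a connexin of the oligodendrocyte lineage, came next with 1.91% to 5.07%. Gjb1, a connexin of myelinating oligodendrocytes, held 0.956% to 2.76%, above the 0.720% to 1.54% of Gjb2.

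**Figure D5:**
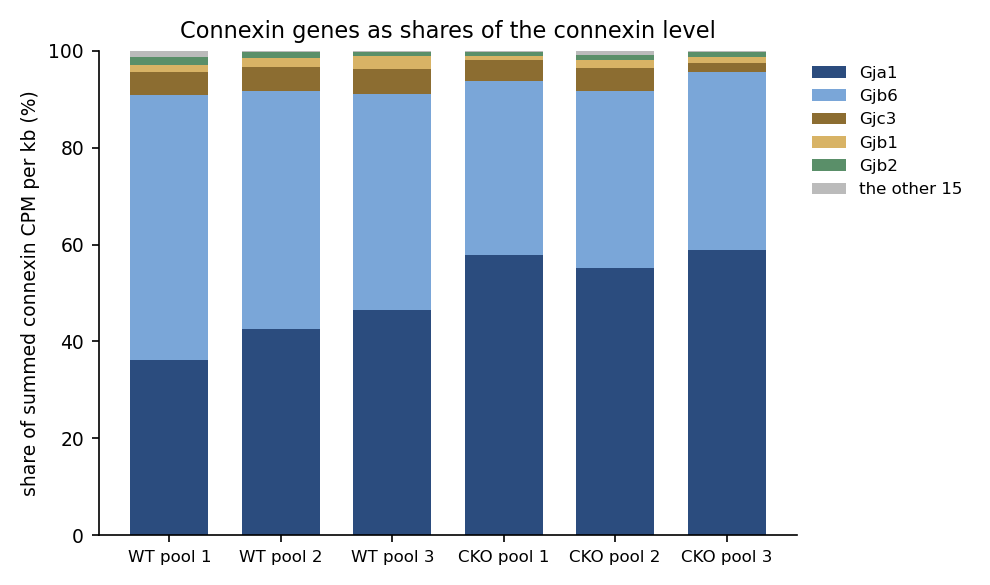
Stacked bars of the share (%) of the summed connexin CPM per kb of merged exon held by 5 connexins and by the other 15 together, 1 bar per pool. Gja1 holds 36.1% to 46.5% in the WT pools and 55.1% to 58.9% in the CKO pools, and Gjb6 44.6% to 54.7% and 35.9% to 36.7%.

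Gjb2 (chr14:57098600-57104702, minus strand) lies 18600 bases from Gjb6 on the same strand, with 1 annotated gene between them. It encodes a connexin best known from the cochlea and from leptomeningeal cells. WT pools 1, 2 and 3 had 22.5, 24.7 and 21.1 CPM, and CKO pools had 14.9, 19.8 and 29.0 CPM. CKO pools spread on both sides of the WT pools, and the log2 fold change was -0.10 (SE 0.37, edgeR adjusted p = 0.954). Without WT pool 2, and likewise without CKO pool 1, its sign changed. Gjb2 also varied between libraries, with 4.64 and 34.7 CPM in WT pool 1. Meningeal fibroblast markers summed to 13.4 to 34.6 CPM in WT and 16.2 to 22.5 CPM in CKO pools, and their part in Gjb2 was not tested.

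Gjc1 (chr11:102799579-102819700, minus strand), a connexin of vascular mural cells and of some neurons and glial precursors, was low and uneven. It was close to the detection limit in WT pool 3 and CKO pools 1 and 2. It had 294, 90 and 2 reads in WT pools 1, 2 and 3, or 5.82, 2.12 and 0.053 CPM. It had 1, 4 and 26 reads in CKO pools 1, 2 and 3, or 0.018, 0.090 and 0.511 CPM. WT pools 1 and 2 were above all others and WT pool 3 was among the lowest, so the genotypes overlapped (exact permutation p = 0.3). The edgeR estimate, -3.68 log2 units (SE 1.77, adjusted p = 0.790), rests on pools with 1 to 4 reads, and without WT pool 1 it was -2.37. Mural markers summed to 109, 93.7 and 38.6 CPM in WT pools and to 62.2, 56.3 and 102 CPM in CKO pools. Endothelial markers summed to 119, 30.9 and 18.7 CPM in WT and 14.4, 26.2 and 39.6 CPM in CKO pools. WT pool 1 was thus highest in Gjc1 and in both vascular lists, although mural markers were nearly as high in CKO pool 3. It was also highest in neuron markers, at 1067 CPM against 377 to 456 CPM elsewhere. The same held for interneuron markers, at 104 CPM against 25.7 to 68.7 CPM elsewhere. The part of vascular cells or of neurons in Gjc1 was not tested.

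Gjd2 (chr2:114009601-114013619, minus strand), the main connexin of electrical synapses between neurons, had 3, 4 and 5 reads in WT pools. CKO pools 1, 2 and 3 had 6, 150 and 4 reads. Only CKO pool 2 stood out, and 149 of its 150 reads came from library 2. Gjd2 was not tested because of its low counts. It shares 57 exon bases with A530058N18Rik on the opposite strand, and reads in that stretch could not be assigned if strand was ignored.

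The other 15 connexins gave little besides Gjc3 and Gjb1. Of these, 5 were tested, of which 1 was above 0 and 4 were below, and none had an unadjusted p under 0.05. Gjc3 had 171 ± 45.0 CPM in WT and 143 ± 37.6 CPM in CKO (log2 fold change -0.26, SE 0.30). Gjb1 had 28.8 ± 15.4 and 20.6 ± 5.81 CPM (log2 fold change -0.48, SE 0.48). Oligodendrocyte markers were highest in WT pool 3 at 6899 CPM, as Gjb1 was at 46.1 CPM and Gjc3 at 216 CPM. In CKO pool 3 these markers summed to 5932 CPM, yet Gjc3 was lowest there at 99.8 CPM. Oligodendrocyte precursor markers summed to 2262, 3063 and 3543 CPM in WT pools and to 4038, 2954 and 1387 CPM in CKO pools. The part of either cell type in Gjc3 and Gjb1 was not tested.

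Panx1 (chr9:15002128-15045478, minus strand), the widely expressed pannexin, had the smallest p of the 8 genes. WT pools 1, 2 and 3 had 9.42, 5.59 and 14.0 CPM. CKO pools 1, 2 and 3 had 27.9, 42.7 and 22.7 CPM. Every CKO pool was above every WT pool. The means were 9.68 ± 4.23 CPM in WT and 31.1 ± 10.4 CPM in CKO (SD, n = 3), a log2 fold change of 1.68 (SE 0.48) with an unadjusted p = 0.00952 and an adjusted p = 0.790 by edgeR. DESeq2 gave Panx1 an adjusted p = 0.0791. The exact permutation p was 0.1, the smallest possible. Its log2 fold change was 1.39 to 2.04 when 1 pool was left out.

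The Panx1 difference was in library 2 and not in library 1. In library 1, WT pools had 14.1, 4.92 and 8.94 CPM and CKO pools had 6.77, 14.0 and 7.31 CPM, with means of 9.32 ± 4.59 and 9.35 ± 4.0 CPM (n = 3, exact permutation p = 1.0). In library 2, WT pools had 4.98, 6.35 and 19.5 CPM and CKO pools had 46.3, 67.9 and 35.3 CPM, with means of 10.3 ± 8.04 and 49.8 ± 16.6 CPM (exact permutation p = 0.1). Library 2 was 2.27 to 2.77 log2 units above library 1 in the CKO pools and -1.50 to 1.13 log2 units from it in the WT pools. These ranges did not overlap (exact permutation p = 0.1, adjusted p = 0.6 over 6 members), so the same 3 CKO pools gave unlike Panx1 levels in their libraries.

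Panx2 (chr15:89059734-89073567, plus strand), a pannexin found mostly in neurons and their precursors, was low. WT pools 1, 2 and 3 had 5.89, 3.42 and 2.23 CPM, and CKO pools had 1.86, 0.965 and 1.81 CPM. Every CKO pool was below every WT pool, but WT pool 3 and CKO pool 1 lay close together. The means were 3.85 ± 1.87 and 1.54 ± 0.503 CPM (n = 3), and the log2 fold change was -1.32 (SE 0.71) with an unadjusted p = 0.105 and an adjusted p = 0.790 in edgeR. The exact permutation p was 0.1. Counts were small and uneven, since WT pool 2 had 12 reads in library 1 and 133 in library 2, and CKO pool 2 had 38 and 5. In library 1 the genotypes overlapped. Neuron markers summed to 1067 CPM in WT pool 1, where Panx2 was highest, and to 377 to 456 CPM in the other 5 pools, and their part in Panx2 was not tested.

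The 11 listed partners of pannexins comprised Panx3, purinergic receptors, enzymes that break down extracellular ATP, and the caspases that can cut Panx1. Of these, 10 were tested, 6 above 0 and 4 below, and none had an unadjusted p under 0.05. The ADP receptor P2ry1 had 4.02, 9.89 and 4.45 CPM in WT and 15.0, 24.3 and 6.77 CPM in CKO pools, a log2 fold change of 1.33 (SE 0.65). CKO pools 1 and 2 were above all WT pools and CKO pool 3 was within their range. Entpd2, an ectonucleotidase of astroglia and stem cells, had 91.2 ± 38.8 CPM in WT and 66.8 ± 27.0 CPM in CKO, and the ATP-gated channel P2rx7 had 64.4 ± 20.8 and 71.4 ± 15.5 CPM. P2ry12, a microglial receptor, was highest in CKO pool 3 at 107 CPM, the pool with the highest sum of microglial markers, 726 CPM against 255 to 375 CPM elsewhere. That sum includes P2ry12 itself, so the sum and the gene are not separate observations.

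Aqp4 (chr18:15389496-15410982, minus strand) had 407, 1038 and 944 CPM in WT pools 1, 2 and 3. CKO pools 1, 2 and 3 had 1049, 797 and 1213 CPM. WT pool 1 was low and the other 5 pools overlapped. The means were 796 ± 341 CPM in WT and 1020 ± 209 CPM in CKO (n = 3), and edgeR fitted a log2 fold change of 0.36 (SE 0.37, adjusted p = 0.842) which was 0.06 without WT pool 1. In all 6 pools library 2 gave more Aqp4 than library 1, by 0.07 to 0.70 log2 units. Among the other 11 aquaporin genes, Aqp11, an aquaporin of intracellular membranes, had 34.2 ± 11.7 CPM in WT and 29.5 ± 9.07 CPM in CKO, and Aqp9 had 7.57 ± 8.93 and 11.9 ± 8.03 CPM. Of these 11, 5 were tested, with no unadjusted p under 0.05.

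Aqp4 is held at endfeet by the dystrophin complex, next to the potassium channel Kcnj10 and to Mlc1 and Hepacam. Of 19 such genes, all tested, 14 were above 0 and 5 below, with a median log2 fold change of 0.43 beside -0.06 over all genes, of which 47.2% were above 0. Of the 15 astrocyte and radial glia markers, 9 were above 0 and 6 below, with a median of 0.23. The only 1 of them with an unadjusted p under 0.05 in edgeR, S100b, was lower in CKO (log2 fold change -0.49). All CKO pools were above all WT pools for 1 of these markers and below them for 2, against 7.67% and 8.17% of all tested genes. The part of astrocyte and radial glia content in the endfoot genes was not tested. Kcnj10 and Sntb1 had an unadjusted p under 0.05, against 5.91% of all tested genes, and none of the 19 passed after adjustment. The same pair were the ones with every CKO pool above every WT pool, against 7.67% of all tested genes. Kcnj10 had 95.4, 140 and 89.4 CPM in WT and 233, 151 and 189 CPM in CKO pools, with no overlap (log2 fold change 0.82, SE 0.27, unadjusted p = 0.0195 and adjusted p = 0.790 in edgeR). It was above 0 in both libraries, at 0.47 and 1.06. Sntb1, a syntrophin, had 0.138, 1.86 and 0.424 CPM in WT and 5.44, 5.88 and 8.03 CPM in CKO pools, a low level in every pool (log2 fold change 2.99, SE 1.02, unadjusted p = 0.0216). Hepacam, a glial adhesion molecule that also binds connexins, had 310, 654 and 762 CPM in WT and 818, 634 and 926 CPM in CKO.

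Among 22 scaffolds and regulators of connexins, 13 were above 0 and 9 below. None passed after adjustment. Tjp1, the scaffold that binds the tail of Gja1, had 30.3, 65.8 and 10.5 CPM in WT and 62.3, 63.9 and 62.8 CPM in CKO. The CKO pools were alike, WT pools 1 and 3 were well below them and WT pool 2 was just above them.

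The genes closest to Gja1, Gjb6, Aqp4 and Panx1 were sought over the 12 libraries among 7009 genes, by the root mean square difference of centred log2 CPM. For Gja1 the closest was Slc1a3, the astroglial glutamate transporter, at 0.22 log2 units, followed by Serinc3, Serinc1, Gpm6a and Abcd2. For Gjb6 the closest was Tapbp at 0.15, then Snapin, Ctsb, Tspan7 and Ndrg2. For Aqp4 it was Sox9, a transcription factor of astrocytes, at 0.18, then Slc7a10, Rsrp1, Fnbp1 and Dtna. Panx1 had no neighbour as near in absolute distance, since its closest gene, Srm, lay at 0.53. Such distances grow with a gene's own spread. The root mean square of centred log2 CPM was 1.23 for Panx1, 0.83 for Gja1, 0.60 for Aqp4 and 0.34 for Gjb6. Between members, Gja1 was nearer to Aqp4 (0.56) than to Gjb6 (0.76). Gjb6 was also nearest to Aqp4 (0.58), a distance above the spread of Gjb6 itself. The points share libraries and pools, so these distances are a description with no test.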

How the data were processed

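Read counts per gene, deposited by the authors in 24 tables, were used as raw counts. Per the submitters' processing notes they were made with Bowtie2 and HTSeq on GRCm38, and versions, annotation and strand setting are not given in the sources used here. Per the labels, RNA was amplified by Smart-Seq2 and libraries were built with Nextera XT. Lanes agreed within sampling noise (chi-square over degrees of freedom 0.986 to 1.01) and libraries of a pool did not (70.7 to 351), and all were summed per pool. Summary lines that name no gene were left out (no feature 16.0% to 35.3% of reads, not aligned 11.2% to 21.7%, ambiguous 2.51% to 3.43%).

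Genotypes were compared with edgeR 4.0.16 (filterByExpr, TMM, robust quasi-likelihood F test, Benjamini-Hochberg over 21477 genes) in R 4.3.3, with DESeq2 1.42.0 as an alternative. Both were also run on simulated counts, but how many true changes they would find in pools as variable as these is not reported here. The common biological coefficient of variation was 0.725. Without molecular identifiers, depth speaks only to counting error. Single values used exact two-sided permutation tests over pools, and the test of whether a difference varied between libraries was added after the data were seen. Gene lengths and positions came from GENCODE M21 (GRCm38), and 96.0% of symbols matched. For likeness, log2 CPM with a prior count of 2 was used for genes with a mean of at least 4. Upstream sequences are from RefSeq (GRCm38.p6). The members and lists were chosen with earlier results of these data known. Named besides the members were, per list, the 2 genes with the smallest p and the 2 highest in CPM, and the 5 genes most like Gja1, Gjb6, Aqp4 and Panx1. Tjp1 was added after its values were seen, as a scaffold of Gja1. Not every gene picked by this rule is reported here.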

Additional observations from a re-analysis of the deposited data

How the results depend on the processing

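No member passed the adjusted threshold under any alternative that was run, and neither did any gene of the related lists. The number of members with an unadjusted p under 0.05 was 1 as reported, 2 with DESeq2, 2 with no filter on low counts, 3 with scaling to the astrocyte and radial glia markers, 0 in library 1 alone and 1 to 4 when 1 pool was left out (4 without WT pool 3). With the pool number as a replicate block it was 2, but pools of the same number deviated together with correlations of only -0.03 to 0.06, so the numbers were not taken to pair the pools. The number of members whose pools did not overlap was 2 as reported, 0 in library 1 alone and 2 to 4 without 1 pool (4 without WT pool 3, CKO pool 2 or CKO pool 3). With fewer pools a lack of overlap is easier to reach, and the share of all tested genes was counted only for the fit as reported. Related genes with an unadjusted p under 0.05 numbered 3 as reported, 5 in library 1 alone and 2 to 5 without 1 pool (5 without WT pool 2 or WT pool 3). For members and related genes alike, the share of all tested genes at that p, 5.91%, was counted only for the fit as reported. The counts under the alternatives therefore have no background beside them. In library 1 alone the log2 fold change of Gjb6 was 0.036, that of the Gjb6 to Gja1 ratio -1.43 and that of Aqp4 to Gja1 -1.20, which was 0.22 in library 2 alone. The log2 fold change of Gjb2 ran from -0.36 to 0.11 without 1 pool. With the longest transcripts 5 neighbouring pairs passed the adjusted threshold of the order test and with merged exons 0 did. The pairs that kept 1 order in every pool numbered 5 and 4 in these settings, and 2 in library 2 alone. The median of all genes moved by 0.13 log2 units with no filter and by 0.11 with the block. The causes were not tested. With 1 pool left out, the order test could not be significant and was not run. Depth limits Gjc1 and Gjd2, for which 3 reads correspond to 0.0526 to 0.0795 CPM.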
